A study of Homo sapiens with 9 samples.

Results

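The HOX genes described here are the protein-coding genes of the HOXA, HOXB, HOXC and HOXD clusters, taken as every row of the expression table with that biotype and a symbol made of HOX, a cluster letter and a number. There were 39 of them among 58735 genes. Expression was measured by RNA sequencing in GBM43 cells, a patient-derived human glioblastoma line, grown in 3D hyaluronic acid devices in which cells can invade the surrounding gel. The libraries fell into 3 groups of 3: cells from devices given 50 µM MK801, which blocks NMDA-type glutamate receptors, the invasive cells cut from control devices, and the core cells left after that cut. MK801 devices held too few invasive cells to collect apart, so their libraries pool core and invasive cells, and a difference between MK801 and either control fraction can reflect the drug or the make-up of the pool, which cannot be told apart. All groups share the cell line, the gel, hyaluronidase digestion and poly-A selection, and what control devices received is given as culture medium in one place and as DMSO in another. Whether replicate libraries of a group were grown separately is not stated, so the p-values below speak for the spread among these libraries alone, part of which may be technical.

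HOX proteins are homeodomain transcription factors that give cells a position along the head-to-tail axis and along the limbs. Within a cluster the genes lie in the order of the body levels they pattern: low paralogue numbers act in the hindbrain and neck, high numbers in the lower trunk, limbs and genitalia. The developing forebrain normally keeps the clusters silent under Polycomb repression, and HOXA genes that are active in glioblastoma have been described, HOXA9 and HOXA10 among them.

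The libraries held 16.5 to 54.4 M (M for 1e6) assigned fragments in the MK801 group, 16.7 to 22.8 M in the invasive group and 15.6 to 23.7 M in the core group. At an equal depth of 15.6 M, 15161 to 21517 genes were detected in MK801 libraries, 15975 to 19140 in invasive libraries and 20322 to 21414 in core libraries. Weighted by fragments, transcripts had a mean GC content of 50.5 to 54.2% in MK801, 52.7 to 54.4% in invasive and 49.8 to 51.1% in core libraries. Of 12 glioma and neural markers, VIM, CD44, EGFR, PDGFRA and SOX2 were expressed. OLIG1 and OLIG2 had 0 fragments in every library, and GFAP was detected in every library but only at 0.00583 to 0.234 FPKM. Summed markers of fibroblasts and pericytes stood at 93.1 to 208 FPKM in MK801, 366 to 635 in invasive and 79.8 to 158 in core libraries. Most of each sum was COL1A1 and COL1A2, which averaged 247 and 163 FPKM in invasive libraries. Of 8 such markers tested 7 were higher in invasive than in core libraries. FAP (2.04 against 2.33 FPKM) and the untested RGS5 (0.0989 against 0.505 FPKM) averaged lower. Whether such cells were present was not tested. Levels are given in FPKM as deposited (fragments per kilobase of gene and 1e6 fragments). The library totals behind these values were 0.769 to 1.23 times the assigned fragments, so they are scaled totals. At least 1 FPKM is called expressed and at least 1 fragment detected. Values are mean ± SD of n = 3 libraries per group unless stated.

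GBM43 cells expressed few HOX genes. Only 4 of the 39 reached 1 FPKM in any library. HOXD9 and HOXA10 did so in all 9 libraries, and HOXA5 in 1 library. A further 23 had fragments but stayed under 1 FPKM throughout, with means of 0.00249 to 0.386 FPKM, and 12 had no fragment in any library, which allows levels of up to 0.0123 to 0.139 FPKM depending on gene and library (3 fragments, counting error alone). These limits take every exonic base as countable. Among the 12, other genes overlap the largest shares of these bases in HOXC5 (59.9%) and HOXB6 (32.9%). A fragment was found in all 9 libraries for 7 genes, with HOXA5, HOXA10, HOXA11, HOXA13, HOXD8 and HOXD9 among them, and in some libraries for 20. The number of HOX genes with a fragment was 9, 17 and 18 in MK801 libraries, 12, 12 and 17 in invasive libraries, and 17, 19 and 17 in core libraries.

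**Figure D1:**
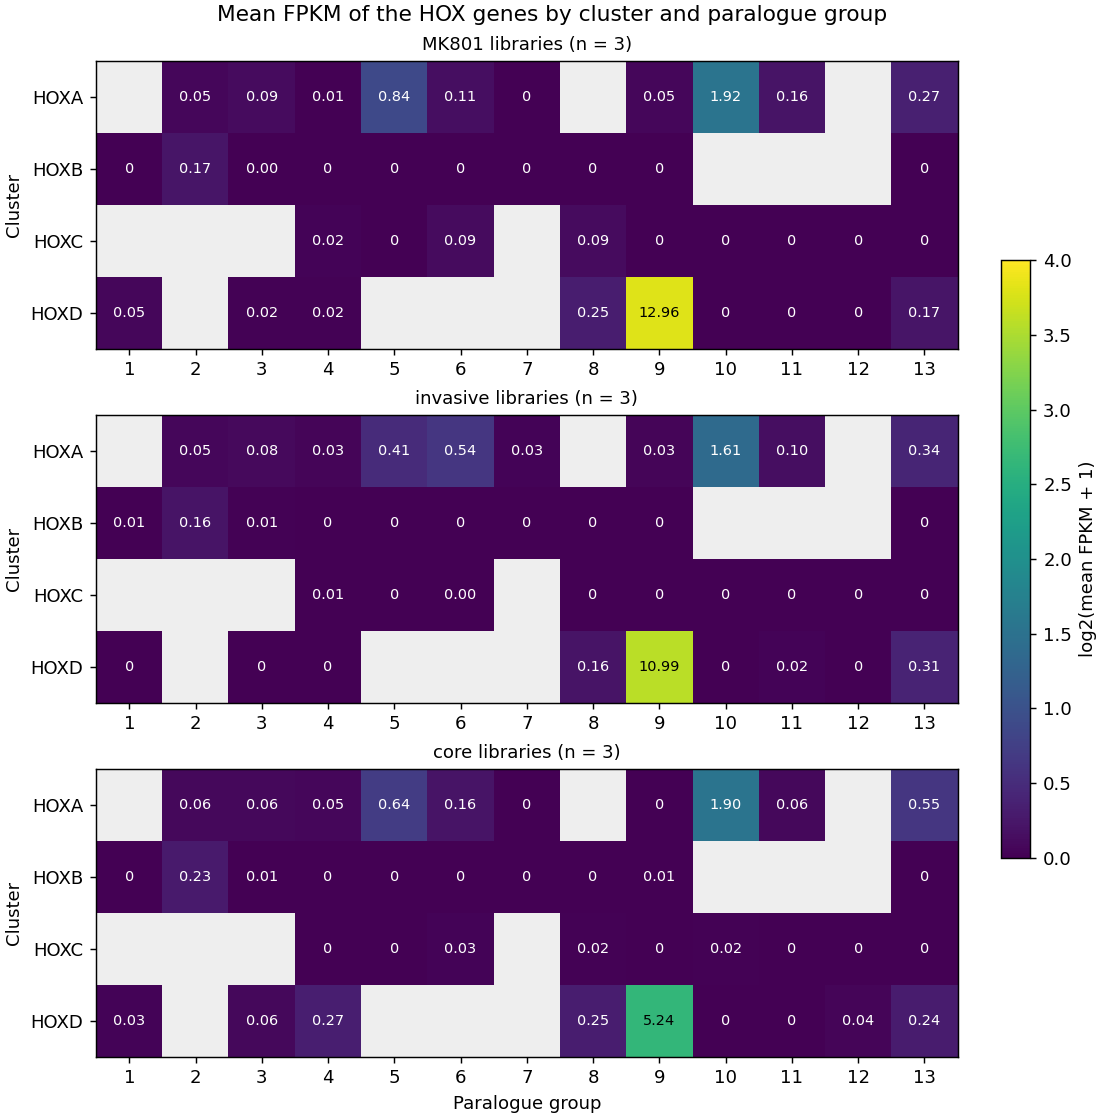
Mean FPKM of each HOX gene by cluster (rows) and paralogue group (columns) in MK801, invasive and core libraries (n = 3 each), coloured by log2(mean FPKM + 1), with grey where there is no gene or no value is shown. HOXD9, at 12.96, 10.99 and 5.24 FPKM, is the brightest field in each panel, and most of the HOXB and HOXC rows is at or near 0.

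The HOXA and HOXD clusters carried nearly all of the signal. In HOXA (chromosome 7, minus strand) all 11 genes had a fragment, 2747 in total over the 9 libraries. In HOXD (chromosome 2, 176092891 to 176190907 on GRCh38, plus strand) 8 of 9 genes did, with 3878 fragments. In HOXB (chromosome 17, 48528526 to 48729178, minus strand) 4 of 10 genes had a fragment, 101 in total, and the highest level in any library was 0.508 FPKM, for HOXB2. In HOXC (chromosome 12, 53938765 to 54056030, plus strand) 4 of 9 genes had a fragment, 72 in total, with a highest level of 0.195 FPKM, for HOXC8. The genes with no fragment were HOXB4, HOXB5, HOXB6, HOXB7, HOXB8, HOXB13, HOXC5, HOXC9, HOXC11, HOXC12, HOXC13 and HOXD10.

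By position, 8 of 8 anterior genes (paralogues 1 to 3), 9 of 15 central genes (4 to 8) and 10 of 16 posterior genes (9 to 13) had a fragment. Posterior genes nevertheless made up 84.5 ± 4.11% of the summed HOX FPKM in MK801, 86.1 ± 6.27% in invasive and 78.0 ± 4.75% in core libraries, most of it HOXD9. Expression did not run as an unbroken stretch along either cluster. HOXD9 lies between HOXD8, at a mean of 0.222 FPKM over the 9 libraries, and HOXD10, at 0. HOXA10 lies between HOXA9, at 0.0274 FPKM, and HOXA11, at 0.107 FPKM. Other genes overlap 16.8% of the exonic bases of HOXD10, 27.0% of those of HOXA9 and 31.1% of those of HOXA11, so these low counts are uncertain. HOXA5 averaged 0.632 FPKM, and HOXA2, HOXA3 and HOXA4 lay at 0.0299 to 0.0740 FPKM.

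**Figure D2:**
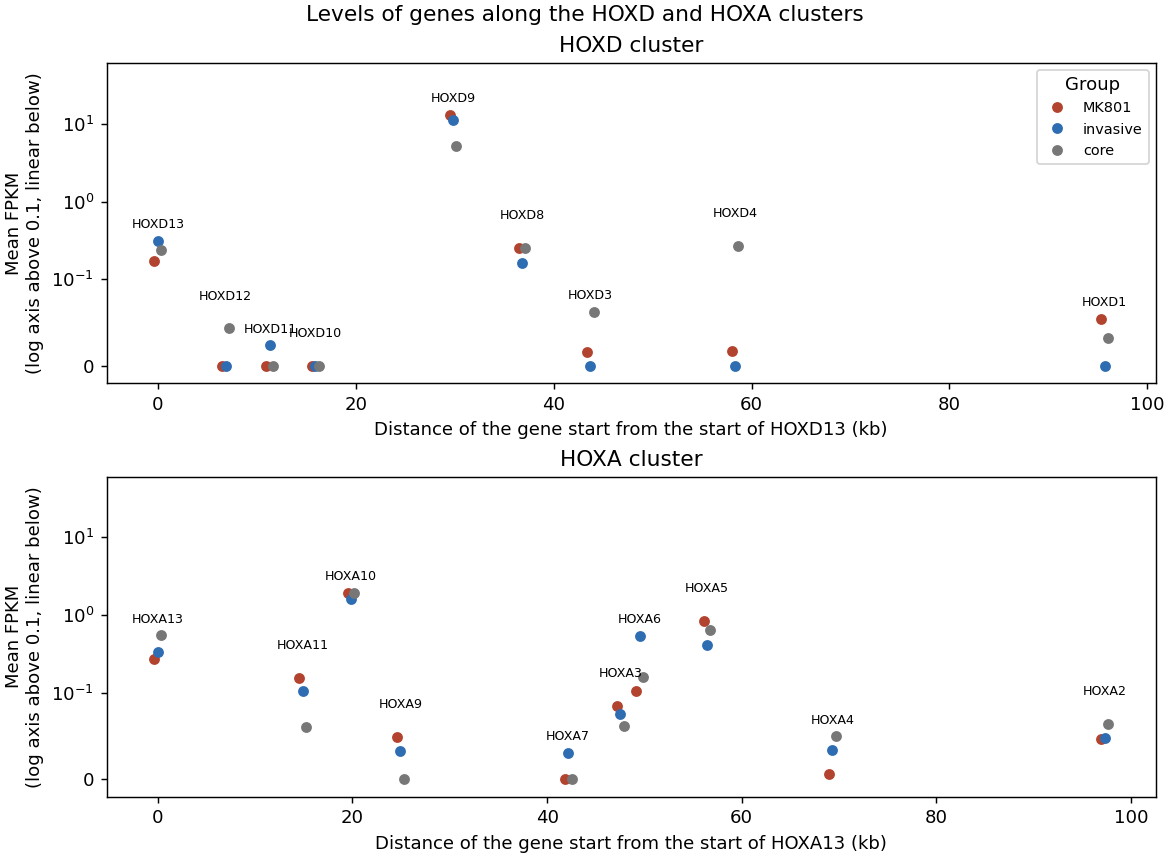
Mean FPKM in MK801, invasive and core libraries (n = 3 each) of genes of the HOXD and HOXA clusters, against the distance of the gene's start from the start of paralogue 13 in kb; the axis is logarithmic above 0.1 FPKM and linear below. HOXD9 stands above its neighbours HOXD8 and HOXD10, and HOXA10 above HOXA9 and HOXA11, in all 3 groups.

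HOXD9 (ENSG00000128709, chromosome 2, 176122720 to 176124937, plus strand), which patterns the lower trunk and the proximal limb, was the highest HOX gene in every library. It stood at 19.2, 12.2 and 7.55 FPKM in MK801 libraries, 7.89, 15.0 and 10.1 FPKM in invasive libraries and 5.65, 5.89 and 4.18 FPKM in core libraries. These values rest on 507, 351 and 918 fragments in MK801, 247, 504 and 377 in invasive and 294, 189 and 176 in core libraries. Every core library lay below every MK801 and every invasive library, whereas the MK801 and invasive values overlapped. Its mean over the 9 libraries, 9.73 FPKM, was 5.38 times that of HOXA10, the second of the HOX genes, and the lowest HOXD9 library exceeded the highest HOXA10 library. Among 191 homeobox genes it ranked 5 by mean level, behind IRX3, PRRX1, PBX2 and MSX1, and among 19951 protein-coding genes it ranked 3826. No exon of another annotated gene overlaps HOXD9, and the longest stretch its transcripts share base for base with another HOX gene is 40 bases, with HOXB9, which itself had 2 fragments in 1 core library.

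HOXA10 (ENSG00000253293, chromosome 7, 27170591 to 27180261, minus strand), which patterns the lumbar spine and the uterus, was expressed at a fairly even level. It was at 2.06, 1.71 and 1.97 FPKM in MK801 libraries, 1.498, 1.23 and 2.11 FPKM in invasive libraries and 1.87, 1.45 and 2.38 FPKM in core libraries. The 3 groups overlapped. HOXA10 exceeded HOXA5 in each of the 9 libraries, and ranked 23 of 191 homeobox genes by mean. Of its exonic bases 26.3% are overlapped by other genes, the antisense HOXA10-AS and the same-strand AC004080.3. Those partners were assigned 3 and 0 fragments in all, but since strand use in counting is not stated, fragments in the shared bases cannot be assigned with certainty.

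HOXA5 (ENSG00000106004), a factor of lung and neck development, was at 0.621, 1.21 and 0.694 FPKM in MK801 libraries, 0.420, 0.260 and 0.558 FPKM in invasive libraries and 0.947, 0.716 and 0.260 FPKM in core libraries. HOXA5 did not overlap between MK801 and invasive libraries, where 5.22% of the genes tested were higher in MK801 without overlap, and it overlapped in the other pairs.

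**Figure D3:**
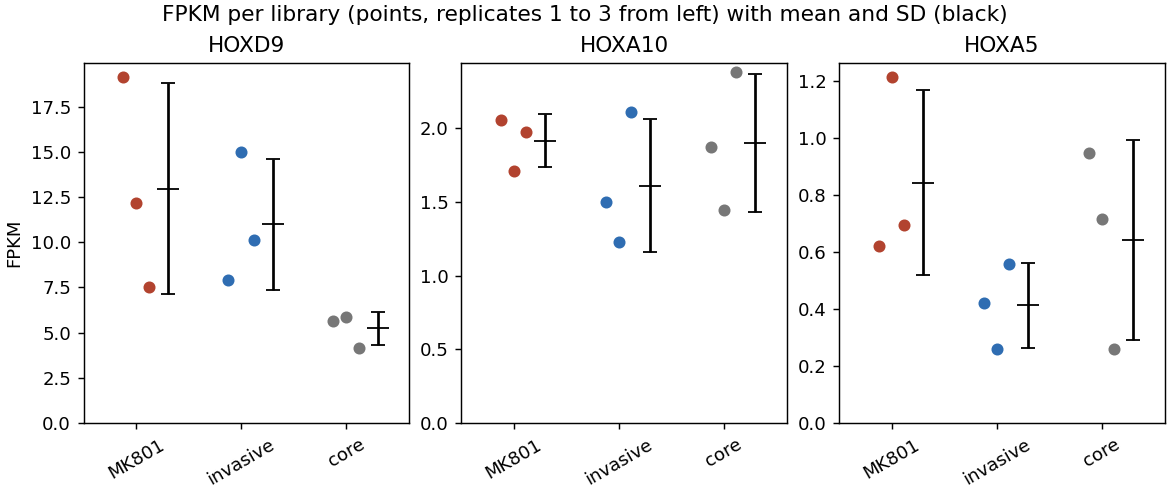
FPKM of HOXD9, HOXA10 and HOXA5 in each library (points, replicates 1 to 3 from left) with the mean and SD of each group (black), axes starting at 0. All core points of HOXD9, up to 5.89 FPKM, lie below the lowest MK801 point at 7.55 and the lowest invasive point at 7.89, and the points of HOXA10 overlap between groups.

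Promoters of HOXA10 and of the genes on either side of HOXD9 are printed because they belong to the second-highest HOX gene and to the low neighbours of the highest. Sequences are from RefSeq on GRCh38.p14, 250 bases before to 50 after the annotated start, 5′ to 3′ on the gene's strand. The table held 20 of the 39 HOX genes in 27 windows of that length. The HOXA10 window, the upstream one of 2 for that gene, is chr7:27179812-27180111 (minus strand), with a TATAAA motif in capitals 222 bases before the start. The HOXD10 window is chr2:176116528-176116827 and the HOXD8 window chr2:176129455-176129754 (both plus strand), neither with that motif.
HOXA10: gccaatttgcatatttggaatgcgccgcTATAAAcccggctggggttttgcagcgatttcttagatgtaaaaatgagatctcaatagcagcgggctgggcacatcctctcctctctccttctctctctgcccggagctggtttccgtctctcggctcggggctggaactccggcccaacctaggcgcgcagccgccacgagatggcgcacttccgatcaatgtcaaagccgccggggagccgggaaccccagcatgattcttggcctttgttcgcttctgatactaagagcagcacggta
HOXD10: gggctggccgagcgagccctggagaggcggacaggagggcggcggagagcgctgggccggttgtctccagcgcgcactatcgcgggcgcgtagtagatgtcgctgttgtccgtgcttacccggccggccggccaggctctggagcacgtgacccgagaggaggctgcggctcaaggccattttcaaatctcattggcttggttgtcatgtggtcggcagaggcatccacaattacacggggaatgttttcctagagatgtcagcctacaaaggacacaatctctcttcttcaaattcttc
HOXD8: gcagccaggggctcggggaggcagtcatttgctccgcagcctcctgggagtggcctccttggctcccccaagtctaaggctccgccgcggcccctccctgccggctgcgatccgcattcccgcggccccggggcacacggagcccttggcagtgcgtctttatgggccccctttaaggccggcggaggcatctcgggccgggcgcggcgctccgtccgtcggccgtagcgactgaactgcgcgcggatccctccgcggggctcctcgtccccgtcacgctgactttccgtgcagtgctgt
The windows held 21, 23 and 34 CG dinucleotides for HOXA10, HOXD10 and HOXD8, against a median of 22 over the windows of HOX genes and 14 over 34796 promoter windows of all genes. TATAAA on either strand was present in 11.6% of all windows and in windows of 4 HOX genes. The other HOXA10 window held 25. These letters describe the windows and say nothing of factor binding or methylation, which were not measured.

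The remaining HOX genes stayed at lower levels, some of them on many fragments, such as 406 for HOXA13 and 130 for HOXD8 over the 9 libraries. HOXA13 and HOXD13, the last genes of their clusters and factors of hand, foot and genital development, had means of 0.386 and 0.241 FPKM over all libraries. HOXA13 was at 0.270 ± 0.197 FPKM in MK801, 0.337 ± 0.165 FPKM in invasive and 0.550 ± 0.138 FPKM in core libraries, and HOXD13 at 0.173 ± 0.174 FPKM in MK801, 0.313 ± 0.0824 FPKM in invasive and 0.238 ± 0.132 FPKM in core libraries, with overlap between the groups of each. HOXA6 averaged 0.270, HOXD8 0.222, HOXB2, a hindbrain gene, 0.186 and HOXA11, a gene of the forearm and uterus, 0.107 FPKM. For the rarest transcripts single libraries decided the values. HOXA9, a factor of blood stem cells that is often active in leukaemia, had 29 fragments in MK801 replicate 3, 6 in invasive replicate 3 and none in the other 7 libraries. HOXC8, a gene of the thoracic level, had 24 fragments in MK801 replicate 3, 2 in MK801 replicate 2, 2 in core replicate 3 and none elsewhere. MK801 replicate 3 was the deepest library, with 54.4 M fragments. In it HOXA9 stood at 0.147 FPKM and HOXC8 at 0.195 FPKM. In any library 3 fragments correspond to at most 0.0700 FPKM for HOXA9 and 0.112 FPKM for HOXC8.

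The first comparison set the invasive fraction against the core fraction within control devices. HOXD9 was at 10.99 ± 3.62 FPKM in invasive and 5.24 ± 0.927 FPKM in core libraries, a ratio of 2.10. HOXA10 was at 1.61 ± 0.450 FPKM in invasive and 1.90 ± 0.469 FPKM in core libraries. Neither passed the test. In limma on log2(FPKM + 1), fitted to all 9 libraries over 11845 genes with Benjamini-Hochberg adjustment, the difference was 0.91 for HOXD9 (SE 0.33, 95% interval 0.18 to 1.64, adjusted p = 0.109) and -0.15 for HOXA10 (SE 0.22, interval -0.63 to 0.33, adjusted p = 0.590). The HOXA10 difference was -0.57 with limma-voom on recovered fragments, where the median of all genes was -0.35, -0.46 with the GC trend removed, -0.04 without invasive replicate 2 and -0.03 without core replicate 3, and it passed the threshold under none of 19 alternatives (adjusted p = 0.130 to 0.935). Of the 39 HOX genes these 2 passed the filter of 1 FPKM in at least 3 libraries, 37 were not tested, and 0 were called by limma or by limma-voom on recovered fragments, with an unadjusted p under 0.05 for 1, HOXD9. The background was 0% of genes called, with an unadjusted p under 0.05 in 4461 genes (37.7%). HOXD9 was 1 of 2 tested HOX genes whose groups did not overlap, and 32% of all genes tested were higher in invasive libraries without overlap. Its difference exceeded that of 90.0% of genes tested. Invasive and core columns of the same replicate number share a code in the labels, which may mark a shared device, although no label says so. A limma fit blocked on that number called 2525 genes (21.3%) in place of 0, and HOXD9 had adjusted p = 0.0530. In bulk samples a higher level in a fraction can mean more cells with the transcript or more transcript per cell, which cannot be told apart.

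Whether the HOXD9 difference between invasive and core libraries passed the threshold depended on which libraries shared the fit. Its size was smaller with the GC trend removed, and whether that trend is technical was not tested. Fitted with limma on these 2 groups alone the difference passed the threshold (log2 0.91, adjusted p = 0.0109), as did 52.2% of all genes tested. Scaled to recovered gene totals, a choice made after seeing the data, the same pair alone gave log2 0.64 with adjusted p = 0.0214, beside 48.9% of genes called. Leaving out MK801 replicate 1 or replicate 3, which are not part of the difference but of the pooled spread, gave adjusted p = 0.0268 and 0.0223, beside 39.5% and 41.3% of genes called. Transcripts of HOXD9 have a GC content of 62.7%, higher than that of 92.6% of genes tested, and with the trend over GC content removed from each library the difference was 0.19 (SE 0.16, adjusted p = 0.478). The part of the fibroblast and pericyte markers, higher in invasive than in core libraries for 7 of 8 tested, in this difference was not tested.

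The second comparison set MK801 devices against the control core. HOXD9 was at 12.96 ± 5.84 FPKM in MK801 and 5.24 ± 0.927 FPKM in core libraries, a ratio of 2.47 (log2 1.09, SE 0.33, interval 0.36 to 1.81, limma adjusted p = 0.235). HOXA10 was at 1.92 ± 0.181 FPKM in MK801 and 1.90 ± 0.469 FPKM in core libraries (log2 0.02, SE 0.22, interval -0.46 to 0.50, adjusted p = 0.957). No HOX gene was called, beside 0% of all genes, of which 21.2% had an unadjusted p under 0.05, HOXD9 among them. HOXD9 again did not overlap between the groups, against 9.89% of genes tested that were higher in MK801 libraries without overlap, and its difference exceeded that of 99.0% of genes tested. This comparison shares the core libraries with the first one. Without MK801 replicate 3, the MK801 library nearest to core in GC content and genes detected, the difference was 1.40 and passed the threshold (adjusted p = 0.00851), as did 50.2% of all genes tested. With the GC trend removed it was 0.52 (SE 0.16, adjusted p = 0.362).

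The third comparison set MK801 devices against the control invasive cells. HOXD9 averaged 12.96 ± 5.84 FPKM in MK801 and 10.99 ± 3.62 FPKM in invasive libraries (log2 0.18, SE 0.33, interval -0.55 to 0.90, limma adjusted p = 0.975), and the sign of this difference turned without MK801 replicate 1 (log2 -0.13) or without invasive replicate 1 (log2 -0.02). HOXA10 averaged 1.92 ± 0.181 FPKM in MK801 and 1.61 ± 0.450 FPKM in invasive libraries (log2 0.17, SE 0.22, interval -0.31 to 0.65, adjusted p = 0.958). No HOX gene was called, beside 0% of all genes, of which 8.26% had an unadjusted p under 0.05. Both tested HOX genes overlapped between the groups. The intervals span differences of either sign, so neither a change nor its absence is shown. With 3 libraries a group, exact permutation p-values have a floor of 0.1, so none are given.

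**Figure D4:**
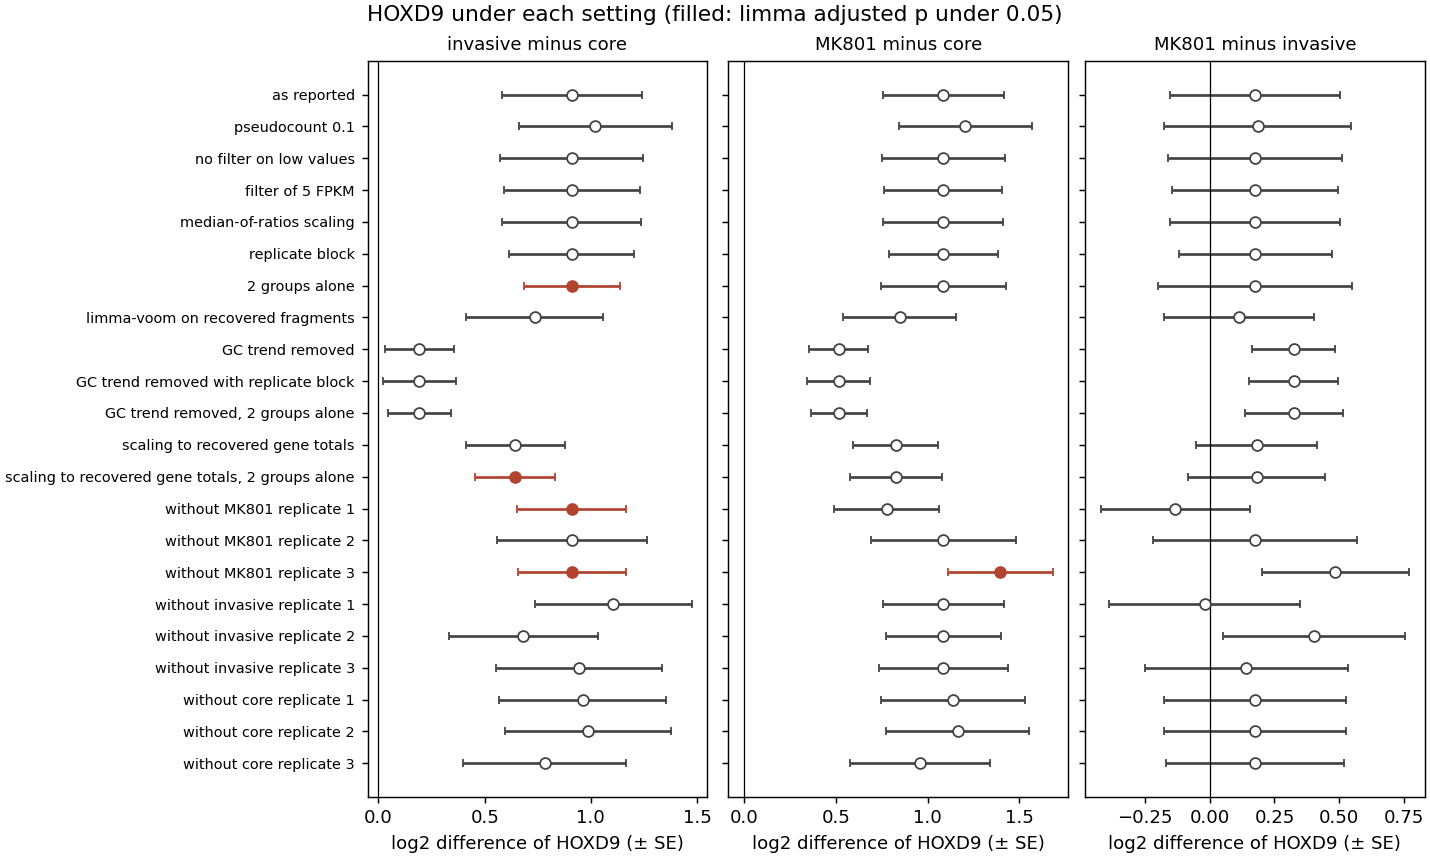
Log2 difference of HOXD9 (points, ± SE) between invasive and core, MK801 and core, and MK801 and invasive libraries under each way of processing the values, with filled points where the limma adjusted p is under 0.05. Both differences from core stay above 0 in every setting, from 0.19 to 1.11 for invasive and from 0.52 to 1.40 for MK801, are smallest where the GC trend is removed, and pass the threshold in 4 settings and in 1 setting. Many points repeat the same value, because those settings alter only the spread or the adjustment.

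HOXD9 took a larger part of the HOX signal in MK801 and invasive libraries than in core libraries. Its share of the summed HOX FPKM, a quantity that library scaling cannot alter, was 79.5, 67.5 and 60.3% in MK801 libraries, 62.8, 83.2 and 63.9% in invasive libraries and 48.2, 58.7 and 44.6% in core libraries. The lowest MK801 and invasive shares lay just above the highest core share. These shares rest on the same HOXD9 values as the comparisons above, so they are not a separate result. Summed HOX FPKM was 18.2 ± 5.78 in MK801, 15.5 ± 2.74 in invasive and 10.4 ± 1.22 in core libraries. Without HOXD9 the sum was 5.25 ± 0.515, 4.46 ± 1.36 and 5.13 ± 0.971 FPKM in MK801, invasive and core libraries, with overlap between the groups. The HOXA cluster held 25.6 ± 7.64% in MK801, 25.5 ± 9.67% in invasive and 38.2 ± 7.17% in core libraries, and the HOXD cluster 72.2 ± 8.29%, 73.2 ± 10.5% and 59.0 ± 7.24%. HOXB and HOXC together stayed at a few percent. By fragments in place of FPKM, which favours long genes, the HOXD share was 62.3% in MK801, 63.8% in invasive and 46.3% in core libraries. No p is given for these sums, and the part of GC content in them was not tested.

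**Figure D5:**
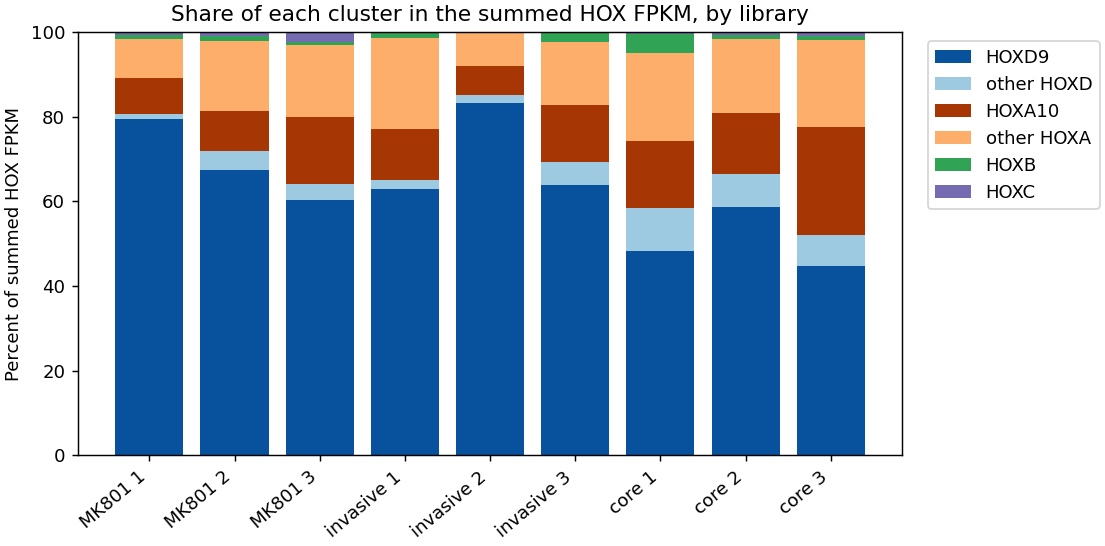
Percent of the summed HOX FPKM in each of the 9 libraries taken by HOXD9, the other HOXD genes, HOXA10, the other HOXA genes, HOXB and HOXC. The HOXD9 segment covers 60.3 to 79.5% in MK801, 62.8 to 83.2% in invasive and 44.6 to 58.7% in core libraries.

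Among weakly detected genes, HOXD4, a hindbrain and neck gene, was found in every core library and in no invasive library. It had 0, 0 and 5 fragments in MK801 libraries, 0, 0 and 0 in invasive libraries and 18, 6 and 4 in core libraries, or 0, 0 and 0.0525 FPKM in MK801, 0 throughout in invasive and 0.442, 0.239 and 0.121 FPKM in core. With fragments pooled and 3 over the group as the floor, the invasive group lay at least 7.56-fold below core. Without core replicate 1, which held 18 of the 28 core fragments, the bound was 4.59-fold. Neither bound covers the spread among libraries or the counting error of the core fragments. Pooled over libraries, MK801 was at 0.0361 FPKM and core at 0.283 FPKM. With no filter on low values HOXD4 had a limma adjusted p = 0.236 for invasive minus core and adjusted p = 0.470 for MK801 minus core, over 28886 genes. Its groups did not overlap in either comparison, nor did those of 32.8% and 8.82% of the genes tested with the filter that were lower in invasive or in MK801 than in core libraries. Same-strand AC009336.2 overlaps 80.5% of the exonic bases of HOXD4, so its counts are uncertain.

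HOXA6, a gene of the thoracic level, averaged higher in invasive than in core libraries, with 0, 0.202 and 0.120 FPKM in MK801, 0.883, 0.476 and 0.273 FPKM in invasive and 0.364, 0.0453 and 0.0691 FPKM in core libraries. The invasive and core libraries overlapped. The MK801 and invasive libraries did not, as for 5.63% of genes tested with the filter that were lower in MK801, and 40.1% of its exonic bases are overlapped by other genes. Over the 27 HOX genes that could be fitted without a filter, an unadjusted p under 0.05 was found for 4 in invasive minus core (HOXD4, HOXD9, HOXD3 and HOXA6) beside 18% of all genes, for 2 in MK801 minus core (HOXD4 and HOXD9) beside 10.6%, and for 1 in MK801 minus invasive (HOXA6) beside 5.66%. Other genes overlap 74.1% of the exonic bases of HOXD3, so its counts are uncertain. After adjustment 0 HOX genes were called by limma in any comparison, with smallest adjusted p of 0.236, 0.470 and 0.791. Shares this close to the background are no result about HOX genes.

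Of the noncoding RNAs transcribed within the clusters, HOTAIRM1 and HOXD-AS2 reached 1 FPKM in at least 1 library. HOTAIRM1 (ENSG00000233429), an antisense RNA of the HOXA cluster that is known to act on HOXA genes in myeloid cells, was at 2.10 ± 1.05 FPKM in MK801, 2.03 ± 0.155 FPKM in invasive and 2.14 ± 0.408 FPKM in core libraries. Its limma adjusted p was 0.903 for invasive minus core, 0.847 for MK801 minus core and 0.996 for MK801 minus invasive. HOXD-AS2 (ENSG00000237380, chromosome 2, 176121611 to 176137098, minus strand), an antisense RNA whose span covers HOXD9 without sharing exonic bases with it, reached 1.05 FPKM in invasive replicate 2 and averaged 0.240 ± 0.213 FPKM in MK801, 0.555 ± 0.429 FPKM in invasive and 0.243 ± 0.211 FPKM in core libraries. Of the other genes lying within the clusters, a fragment was found for 7 of 23 in HOXA, 2 of 17 in HOXB, 1 of 14 in HOXC and 5 of 8 in HOXD, HOTAIRM1 and HOXD-AS2 included. The 8 microRNA genes of the clusters had 0 fragments, in libraries made from poly-A selected RNA, which do not capture mature microRNAs.

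Cofactors that help HOX proteins bind DNA are homeodomain proteins of the PBX, MEIS and PKNOX families. Of 9 genes, 1 had no fragment, 5 were tested, and 0 were called in any limma comparison. An unadjusted p under 0.05 was found for 2 of the 5 in invasive minus core, beside 37.7% of all genes tested, 1 in MK801 minus core, beside 21.2%, and 0 in MK801 minus invasive, beside 8.26%. PBX2 was at 21.4 ± 4.61 FPKM in MK801, 18.2 ± 1.57 FPKM in invasive and 19.4 ± 1.65 FPKM in core libraries. PKNOX1 was at 2.98 ± 0.803, 2.47 ± 0.506 and 3.83 ± 0.211 FPKM, PBX3 at 2.24 ± 0.556, 2.91 ± 0.354 and 4.09 ± 0.215 FPKM, and MEIS2 at 1.19 ± 0.684, 0.650 ± 0.205 and 1.87 ± 0.356 FPKM in MK801, invasive and core libraries. PBX3 averaged highest in core libraries, with limma adjusted p = 0.235 for MK801 minus core and 0.168 for invasive minus core. In invasive minus core 1 of the 5 was higher and 4 lower (median log2 -0.38, all genes -0.02), in MK801 minus core 2 were higher and 3 lower (median -0.30, all genes 0.00), and in MK801 minus invasive 3 were higher and 2 lower (median 0.19, all genes 0.00).

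Polycomb proteins keep HOX clusters silent and Trithorax proteins keep them active. Of 19 Polycomb genes, all reached 1 FPKM in at least 3 libraries and were tested, and 0 were called by limma. An unadjusted p under 0.05 was found for 5 in invasive minus core, beside 37.7% of all genes tested, 5 in MK801 minus core, beside 21.2%, and 3 in MK801 minus invasive, beside 8.26%. In invasive minus core 9 were higher and 10 lower (median log2 -0.01, all genes -0.02). In MK801 minus core it was 11 and 8 (median 0.30, all genes 0.00), and in MK801 minus invasive 15 and 4 (median 0.11, all genes 0.00). With a filter of 5 FPKM the median of all genes was 0.23 in MK801 minus core and 0.24 in invasive minus core. The part of level and GC content in the list medians was not tested. Among those with the smallest p were CBX6, a chromodomain subunit, at 16.9 ± 3.46 FPKM in MK801, 9.05 ± 1.81 FPKM in invasive and 8.36 ± 1.17 FPKM in core libraries, EZH1, a histone H3 lysine methyltransferase, at 8.87 ± 0.790, 5.20 ± 0.299 and 7.88 ± 1.01 FPKM, and JARID2, an accessory subunit, at 8.22 ± 4.31, 2.82 ± 0.488 and 5.60 ± 1.61 FPKM in the same order of groups. The limma adjusted p was 0.235 for CBX6 in MK801 minus core and 0.109 for EZH1 in invasive minus core.

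Of 14 Trithorax and related activating genes, all were tested and 0 called by limma. An unadjusted p under 0.05 was found for 3 in invasive minus core, 5 in MK801 minus core and 0 in MK801 minus invasive, beside 37.7%, 21.2% and 8.26% of all genes tested. Of the 14, 7 were higher and 7 lower in invasive minus core (median log2 -0.16), 6 and 8 in MK801 minus core (median -0.14) and 5 and 9 in MK801 minus invasive (median -0.07), where the medians of all genes were -0.02, 0.00 and 0.00. DOT1L, a histone methyltransferase linked to HOXA activity in leukaemia, was at 7.61 ± 2.28 FPKM in MK801, 8.67 ± 1.06 FPKM in invasive and 4.68 ± 0.375 FPKM in core libraries (adjusted p = 0.106 for invasive minus core). MEN1, the menin scaffold, was at 19.5 ± 7.87, 21.1 ± 4.31 and 10.6 ± 1.52 FPKM, KMT2B, a histone H3 methyltransferase, at 13.1 ± 4.01, 13.8 ± 3.78 and 8.09 ± 1.11 FPKM, and PSIP1, which tethers menin complexes to chromatin, at 3.78 ± 2.54, 4.88 ± 1.23 and 6.998 ± 2.45 FPKM in MK801, invasive and core libraries.

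Retinoic acid, made by ALDH1A enzymes and sensed by RAR and RXR receptors, switches on anterior HOX genes in the embryo. Of 16 genes of this pathway 5 were tested and 0 called by limma. An unadjusted p under 0.05 was found for 3 in invasive minus core, 1 in MK801 minus core and 0 in MK801 minus invasive, beside 37.7%, 21.2% and 8.26% of all genes tested. All 5 were higher in invasive minus core (median log2 0.64, all genes -0.02) and in MK801 minus core (median 0.54, all genes 0.00). In MK801 minus invasive 2 were higher and 3 lower (median -0.10, all genes 0.00). With a filter of 5 FPKM the medians of all genes were 0.24 in invasive minus core and 0.23 in MK801 minus core. The part of level and GC content was not tested here either. RXRB was at 59.2 ± 23.0 FPKM in MK801, 49.2 ± 12.5 FPKM in invasive and 30.3 ± 4.51 FPKM in core libraries, and RARA at 20.5 ± 8.03, 25.9 ± 5.09 and 12.2 ± 1.66 FPKM. RXRA was at 2.40 ± 0.483, 2.63 ± 0.145 and 1.51 ± 0.607 FPKM, RARG at 1.10 ± 0.500, 1.64 ± 0.319 and 0.689 ± 0.146 FPKM, and CRABP2, a retinoic acid carrier, at 23.2 ± 8.34, 20.6 ± 14.3 and 16.0 ± 8.16 FPKM in MK801, invasive and core libraries. The synthesis enzymes ALDH1A1 and ALDH1A2 averaged 0.0639 and 0.0227 FPKM.

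Position genes of the head were also measured. DLX1, a factor of ventral forebrain neurons, was at 0.837 ± 0.128 FPKM in MK801, 1.24 ± 0.315 FPKM in invasive and 1.06 ± 0.384 FPKM in core libraries. Of 16 forebrain and midbrain genes 3 were tested, 4 had no fragment, and 0 were called by limma or had an unadjusted p under 0.05. In invasive minus core 2 were higher and 1 lower (median log2 0.13, all genes -0.02). In MK801 minus core 3 of 3 were lower (median -0.15, all genes 0.00), 1 of them by only -0.0009. In MK801 minus invasive 3 of 3 were lower (median -0.26, all genes 0.00). Of the 6 genes of the ParaHOX and CDX group, close relatives of HOX genes, 5 had 0 fragments in every library, and CDX1 did not pass 0.474 FPKM.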

How the data were processed

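RNA sequencing of 9 GBM43 libraries was analysed, 3 each from MK801 devices, control invasive and control core fractions, grouped by their labels. The deposited values are FPKM per gene with the gene length the authors used. Alignment with HISAT2 2.0.5 to GRCh38 and counting with featureCounts 1.5.0-p3 are credited to the submitters' processing notes, and whether counting used strand is not given in the sources used here. FPKM times length was a whole number of fragments per library for 100% of values above 0 (tolerance 0.01), so fragments were recovered. Library factors by median of ratios were the same in all 9, so the deposited FPKM already carries such a scaling, and 0 value columns were left unmapped.

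Log2(FPKM + 1) was fitted with limma 3.58.1 in R 4.3.3 (1 mean per group, empirical Bayes with trend, 6 residual degrees of freedom) on 11845 genes with 1 FPKM in at least 3 libraries, adjusted by Benjamini-Hochberg, threshold 0.05. The fit was tested on simulated data. Overlaps and GC content come from GENCODE 29, promoters from RefSeq. HOX genes reaching 1 FPKM in a library are named in full, except that some genes are not reported here. In other lists, genes averaging 1 FPKM are named, or the 4 with the smallest p where more than 6 do. HOX genes under 1 FPKM, GFAP, ALDH1A1, ALDH1A2 and CDX1 were named after their values were seen. The members and lists were chosen with earlier results of these data known. Floors cover counting error only, and intervals of differences are limma's, from the spread among libraries. Alternatives were pseudocount 0.1, no filter or 5 FPKM, median-of-ratios scaling, the replicate number as a block, each pair of groups alone, voom on recovered fragments, removal of the GC trend (loess span 0.3), and leaving out each library. Scaling to recovered gene totals, and the HOXD4 bound without each core library, were added after seeing the data.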

Additional observations from a re-analysis of the deposited data

How the results depend on the processing

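The HOXD9 differences from core were above 0 under the 20 alternatives besides median-of-ratios scaling (log2 0.19 to 1.11 for invasive, 0.52 to 1.40 for MK801), with limma adjusted p of 0.0109 to 0.497 and 0.00851 to 0.551. Many of the 20 could not move the difference itself. The filters, the replicate block, the 2 groups alone and leaving out a library of the group not compared alter only its spread or adjustment. One HOX gene, HOXD9, was called in invasive minus core with the 2 groups alone, also when scaled to recovered gene totals (log2 0.64, adjusted p = 0.0214). With one library left out, 0 to 1 HOX genes were called in invasive minus core and in MK801 minus core. Scaling to recovered gene totals put the median of all genes at -0.25 in invasive minus core, in place of -0.02, and at -0.21 in MK801 minus core, in place of 0.00, and HOXD9 then differed by 0.64 and 0.83. The count of all genes called in invasive minus core, 0 in the fit of 9 libraries, was 6179 with the 2 groups alone, 5788 with recovered totals and the 2 alone, 2050 with GC removed and the 2 alone, and 0 to 4888 with one library left out. In MK801 minus core it was 0 to 5941 with one library left out. In MK801 minus invasive it was 1 with a filter of 5 FPKM, 75 with the GC trend removed, 46 with GC removed and the replicate block, 3 with GC removed and the 2 groups alone, and 0 to 42 with one library left out. The causes were not tested. HOXA10 in MK801 minus core, log2 0.02, had the other sign with voom (-0.22), GC removal in each of 3 fits (-0.24), recovered totals in both fits (-0.18), and without MK801 replicate 1 (-0.02) or core replicate 2 (-0.10), within -0.10 to 0.14 over the libraries left out. HOXD9 in MK801 minus invasive had the other sign without MK801 replicate 1 (-0.13) or invasive replicate 1 (-0.02), within -0.13 to 0.48. By fragments the HOXA share was 35.1% in MK801 and 50.8% in core, and the HOXD share 62.3% and 46.3%. With recovered totals the core sums were 4.62 FPKM for HOXA and 12.1 FPKM for all HOX genes. Same-numbered libraries did not all deviate together (correlation across genes -0.0070, 0.243 and 0.445 for invasive and core, 0.414, 0.0438 and 0.585 for MK801 and core, and -0.150, 0.0344 and 0.608 for MK801 and invasive). Differently numbered libraries correlated at -0.40 to 0.21, -0.52 to 0.17 and -0.55 to 0.53 in the same order. These values do not settle whether a number marks a shared device. No label states what a number marks, and the fit without a block was kept. With the replicate block 2525 genes were called in invasive minus core and 0 in either MK801 comparison, and HOXD9 had adjusted p = 0.0530 and 0.106 against core. Median-of-ratios factors were equal in all 9 libraries, so that alternative was no test of scaling. HOXA10 in MK801 minus invasive ran from 0.06 to 0.35. Depth limits the 12 HOX genes with no fragment, for which up to 0.0123 to 0.139 FPKM is allowed, taking every exonic base as countable.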
